A study of Mus musculus with 27 samples.

Results

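The 48 loci of the deposited methylation table for iron-related genes were compared between the livers of male C57B/6J mice on a low-iron diet (LID) and a standard-iron diet (SID). All 48 loci of the table were used, and they lie in 10 genes. The score of each locus was measured in 3 LID animals and 3 SID animals, with 3 animals on a high-iron diet (HID) as a further group. SID held 50 mg and LID 0.9 mg of carbonyl iron per kg, and HID held 8.3 g per kg. Mice were 6 weeks old when SID or HID was started but 3 weeks old when LID was, so low iron and the earlier start cannot be told apart in any LID comparison. Each animal gave an HpaII and an MspI library, 18 in all for 9 animals, and the table holds 1 score between 0 and 100 per locus and animal. The animal codes in the labels are A1, A2 and A3 for SID, M8, M9 and M0 for LID, and A4, A5 and M5 for HID. The code letter therefore follows the diet in LID and SID, and the labels do not say what the letter stands for.

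HpaII and MspI both recognise the sequence CCGG. HpaII cuts it only when its inner cytosine is unmethylated, whereas MspI cuts it either way, so the balance of the digests reports methylation at single CCGG sites. In mammalian genomes CpG-rich promoters and first exons are usually unmethylated, while most CpG sites in introns are methylated. Liver iron is sensed through bone morphogenetic protein (BMP) signalling: ligands made by endothelial cells activate receptor-regulated SMAD proteins in hepatocytes, these switch on the hepcidin gene Hamp, and the inhibitory SMADs feed back on the pathway. Hepcidin lowers iron export by ferroportin, while metal transporters and ferritin handle uptake and storage within the cell.

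The genes of the table cover several of these roles. Bmp6 and Bmp2 encode ligands, Smad9 a receptor-regulated SMAD, and Smad6 and Smad7 the inhibitory SMADs. Slc11a2 encodes the divalent metal importer DMT1, Steap3 an endosomal ferrireductase, Ftl1 the ferritin light chain, and Slc39a5 and Slc39a11 members of the ZIP metal transporter family. Smad6 held 13 loci, Slc39a11 11, Slc11a2 7, Smad7 6, Bmp6 3, and Bmp2, Slc39a5 and Steap3 2 each, and Smad9 and Ftl1 held 1 each. By the authors' region names 38 loci lay in introns, 6 in first exons, 2 in promoters and 2 in later exons. Each locus spans 4 bases, the length of a CCGG site. Positions are those of the table on mm9.

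RefSeq promoter windows of 300 bases, from 250 bases before to 50 after the start of a gene (build GRCm38.p6), matched 7 of the 10 genes by symbol. Of 32851 such windows in the whole RefSeq table, 52.8% held at least 1 CCGG, searched as C, C, G, G, which is its own reverse complement, and the median window held 7 CG pairs. Windows of 3 genes with a promoter or first-exon locus are shown because those loci gave the largest and the opposite differences, with CCGG in capitals. The Bmp6 window (chr13:38345466-38345765, plus strand) holds 5 CCGG and 27 CG. The Smad6 window (chr9:64022010-64022309, minus strand) holds 2 CCGG and 31 CG. Slc39a5 has 2 windows, both with 0 CCGG, and the one shown (chr10:128401175-128401474, minus strand) holds 0 CG, while the other holds 3. No capitals occur in it. The measured loci have positions on another build and were not placed in these windows. As both Slc39a5 windows hold 0 CCGG, its promoter locus, if it is a CCGG site, lies in neither of them.
Bmp6: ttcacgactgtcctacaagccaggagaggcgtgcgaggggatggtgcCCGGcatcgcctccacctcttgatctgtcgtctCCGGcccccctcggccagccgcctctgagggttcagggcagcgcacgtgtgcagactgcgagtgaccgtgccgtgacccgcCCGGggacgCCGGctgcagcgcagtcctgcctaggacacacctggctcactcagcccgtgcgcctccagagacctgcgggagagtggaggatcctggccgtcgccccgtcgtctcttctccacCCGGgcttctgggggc
Smad6: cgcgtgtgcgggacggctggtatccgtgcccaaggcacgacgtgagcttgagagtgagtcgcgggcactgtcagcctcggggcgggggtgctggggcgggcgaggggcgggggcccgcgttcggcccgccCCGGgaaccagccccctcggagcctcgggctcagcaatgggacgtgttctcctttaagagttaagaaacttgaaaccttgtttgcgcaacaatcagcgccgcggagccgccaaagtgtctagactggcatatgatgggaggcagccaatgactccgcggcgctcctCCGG
Slc39a5: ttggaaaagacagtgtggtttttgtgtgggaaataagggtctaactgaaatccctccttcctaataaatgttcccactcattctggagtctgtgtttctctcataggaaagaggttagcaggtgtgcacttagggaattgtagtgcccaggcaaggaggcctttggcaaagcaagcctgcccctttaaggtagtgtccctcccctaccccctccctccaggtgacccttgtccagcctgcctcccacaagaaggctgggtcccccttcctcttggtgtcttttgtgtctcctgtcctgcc

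The loci had been selected by the submitters. Each carries a p-value of the authors, whose test the file does not name, and 48 of 48 were below 0.05, the highest being 0.0494. The p-values below do not account for that selection, so a high share of calls is built into the table, and they describe which loci differ between which diets. The file does not say whether a high score means more or less methylation. The coverage behind the scores is unknown, and so no counting interval could be given.

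LID livers had higher scores than SID livers at loci that started low and lower scores at loci that started high. Here the start of a locus is its SID mean unless another is named. No score from before a diet is given, so a rise or fall is a difference between animals. The score was higher in LID at 29 loci and lower at 19. The 29 loci had SID means from 3.60 to 38.6 and LID means from 20.7 to 58.4, with a median difference of 28.4. The 19 loci had SID means from 48.96 to 97.7 and LID means from 23.1 to 75.5, with a median difference of −15.2. Of all 48 loci, 44 (91.7%) passed limma at a Benjamini-Hochberg adjusted p below 0.05 over the 48 loci. All 29 with a higher score passed (60.4% of the table) and 15 with a lower score did (31.2%). The animals of both diets did not overlap at 47 loci (97.9%), where an exact two-sided permutation test gives p = 0.1, the smallest it allows for 3 against 3. Without animal M9 of LID the count of lower calls was 8, without A1 of SID it was 8, and without A3 of SID it was 9.

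**Figure D1:**
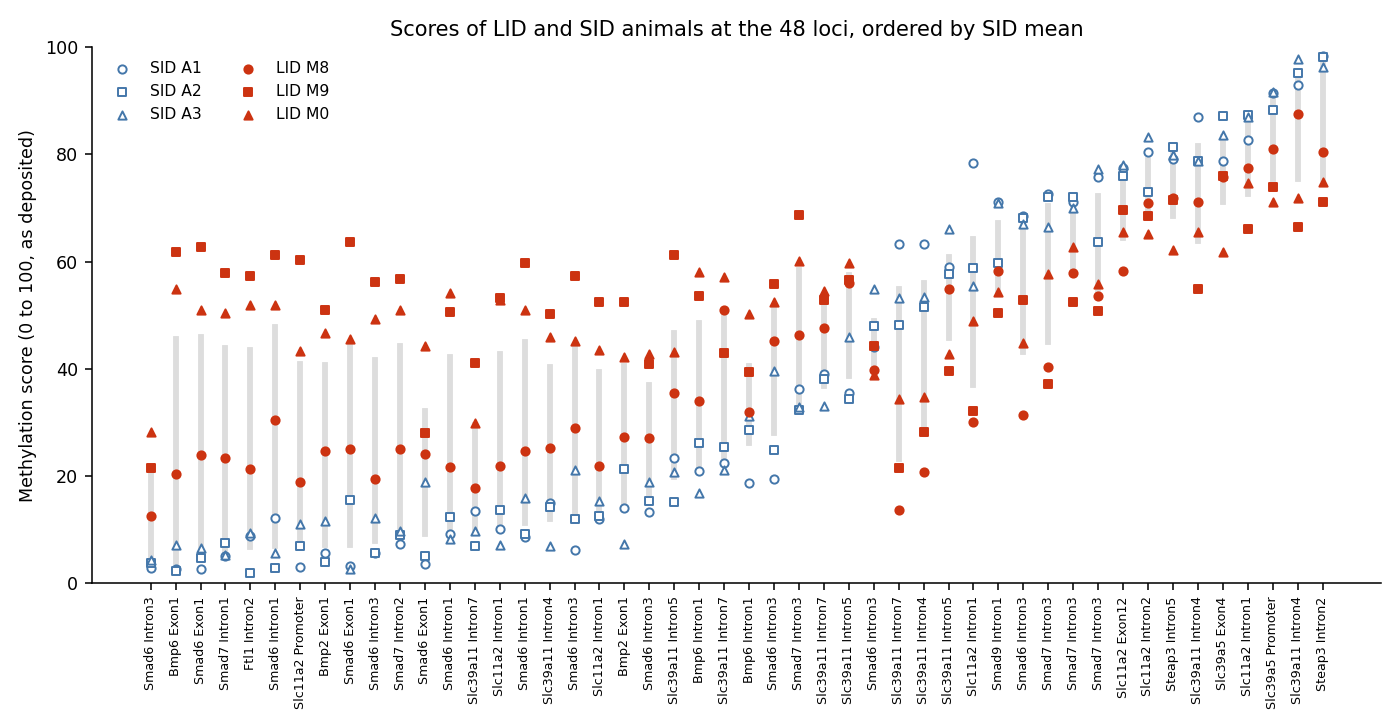
Methylation score (0 to 100, vertical axis) of each SID animal (open blue) and each LID animal (filled red) at the 48 loci, ordered from left to right by the SID mean, with a grey bar joining the diet means. The LID points lie above the SID points on the left and below them on the right, and the diets overlap at 1 locus, in intron 3 of Smad6.

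At many of the same loci the M-coded HID animal also stood apart from both A-coded HID animals. It is a single animal, so its letter and the animal itself cannot be told apart. M5, the M-coded HID animal, lay above both A-coded HID animals at all 29 loci that were higher in LID, by a median of 19.0 points. At the 19 loci that were lower in LID, M5 lay below both A-coded HID animals at 13, and the median of M5 minus A4 and A5 was −5.81. M5 lay on the LID side of all 5 A-coded animals at 34 of the 48 loci and inside the range of the 3 LID animals at 22. M5 minus the mean of A4 and A5 followed LID minus SID over the loci, with Pearson r = 0.85 and Spearman rho = 0.86 (n = 48). These differences use separate animals but the same loci, which were selected over all 9 animals. The score is also bounded, so at loci where the A-coded animals were near an end of the scale both differences could go mainly toward the other end. The correlation is thus partly built in.

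With the code letter as a term in limma, which the HID animals alone can inform, 0 of 48 loci passed (0%). At an unadjusted p below 0.05 there were 4 (8.33%), and the smallest adjusted p was 0.252. The median absolute LID minus SID difference was 25.1 without the term and 11.003 with it, and the median standard error (SE) was 6.71 and 11.2. The sign of the difference was the same at all 48 loci. M5 is the one animal behind this estimate of the letter. The animals alone cannot tell low iron and the code letter apart in LID against SID, and every result below is to be read with that.

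**Figure D2:**
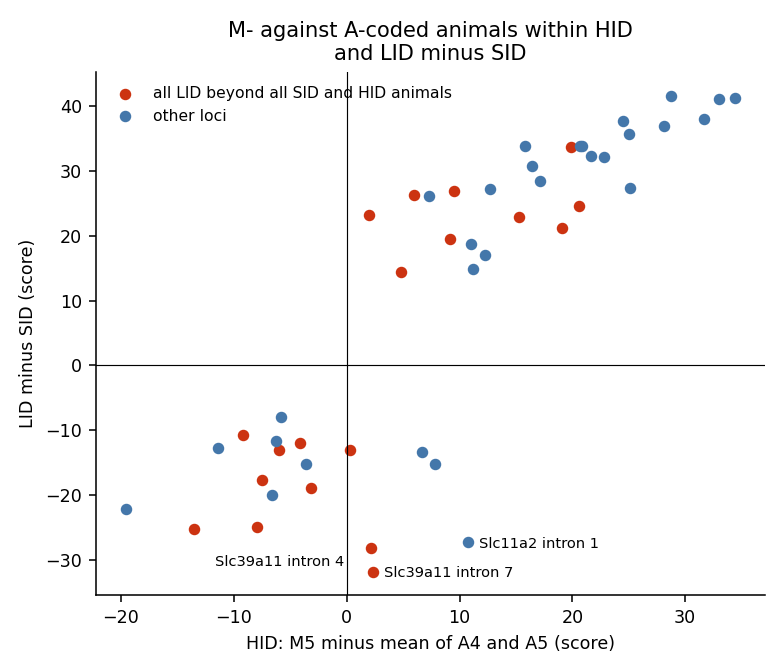
Each point is 1 of the 48 loci. The horizontal axis is the score of the HID animal M5 minus the mean of the HID animals A4 and A5, and the vertical axis is the mean of 3 LID minus the mean of 3 SID animals. Loci at the upper right were higher in both comparisons, while the 3 named loci at the bottom, in Slc39a11 and Slc11a2, were lower in LID while M5 stood above the mean of A4 and A5. Red points mark the 19 loci at which all LID animals lay beyond all SID and HID animals.

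The scores of the M-coded animals covered a narrower part of the scale. Over the 48 loci the standard deviation (SD) of the scores was 31.2 to 32.9 in the SID animals A2 and A1, with A3 at 31.5. It was 31.6 in A4 and 30.5 in A5, but 20.6 in M5. In LID it was 21.0 in M8, 13.2 in M9 and 10.9 in M0. Scores under 10 occurred at 13 to 14 loci in each SID animal and at 14 and 16 loci in A4 and A5. None of the 4 M-coded animals had such a score.

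Among the LID animals, M8 stood apart from M9 and M0. At the 30 loci with a SID mean below 50 the median score was 24.99 in M8, 54.6 in M9 and 50.3 in M0, against 11.002 to 12.3 in the SID animals and 32.8 in M5. M8 was the LID animal nearest to SID at 28 of the 29 loci that were higher in LID, and at 9 of the 19 that were lower. The SD among the 3 LID animals was correspondingly wide at the loci that were higher in LID, with a median of 14.1 points against 3.98 for SID. At the loci that were lower in LID it was 5.95 against 4.197. Without M8 the counts of LID against SID calls were 29 higher and 16 lower.

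**Figure D3:**
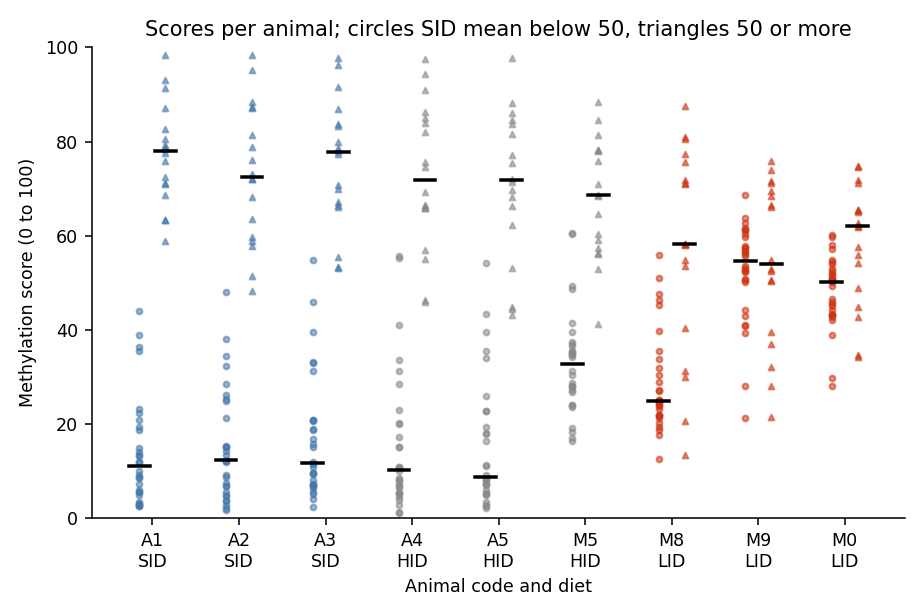
Methylation score (0 to 100) of each locus in each of the 9 animals, with blue for SID, grey for HID and red for LID. Circles are the 30 loci with a SID mean below 50, triangles the 18 with a SID mean of 50 or more, and bars the medians. The 2 groups of loci are far apart in A1 to A5, closer in M5 and M8, and close together in M9 and M0.

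The starting score separated the directions almost completely. With a SID mean below 50, 29 of 30 loci were higher in LID, with a median difference of 27.9. With a SID mean of 50 or more, 18 of 18 were lower, with a median of −16.4. The highest start among the loci that were higher in LID was 38.6, in intron 5 of Slc39a11, and the lowest among the others was 48.96, in intron 3 of Smad6. Since the difference contains the SID animals, the start was also taken from the HID animals A4 and A5, and then 29 of 31 loci below 50 were higher and 17 of 17 at or above it were lower. Pearson r between start and difference was −0.92 with the SID start and −0.88 with that of A4 and A5 (n = 48). The n counts loci, which share the same few animals. The score is bounded, and the loci were selected over all animals, A4 and A5 included. A selected locus near either end of the scale could differ mainly toward the other end. Near the ends the direction is thus partly built in, and taking the start from A4 and A5 does not remove this.

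**Figure D4:**
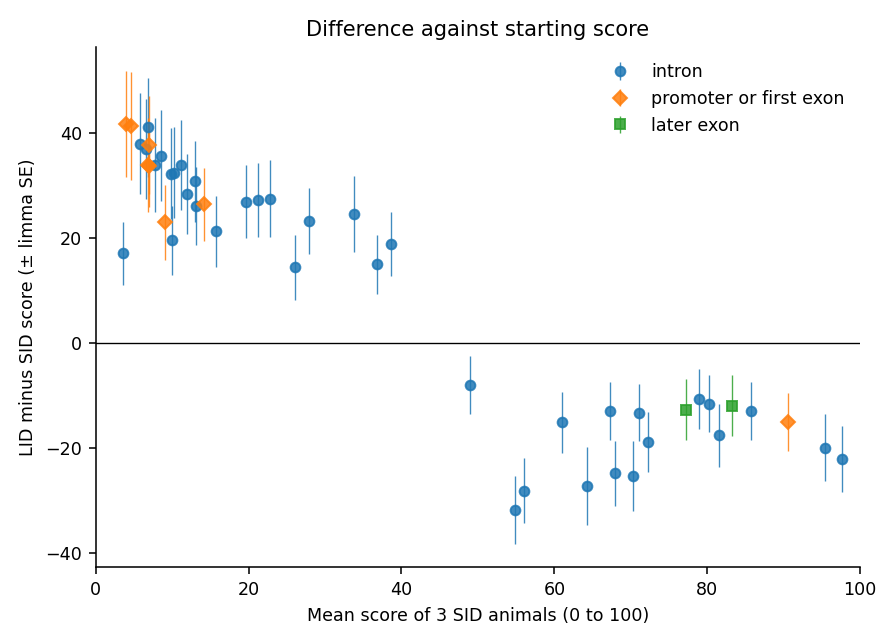
LID minus SID score (vertical axis, ± limma SE) against the mean score of the 3 SID animals (horizontal axis, 0 to 100) for the 48 loci, by the authors' region name. First-exon loci sit at the far left with differences from 23.0 to 41.7, and the one promoter locus at the far right, in Slc39a5, is at −15.1.

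By region name, the 6 first-exon loci were all called higher in LID, with a median difference of 35.7. Their SID means ran from 3.96 to 14.2. All 22 loci of any region with a SID mean below 20, these 6 included, were called higher, with a median of 33.0. The 2 promoter loci went opposite ways, and the 2 later-exon loci, in Slc11a2 and Slc39a5, were lower by 12.8 and 12.1 points, with the first called and the second not. Of the 38 intron loci, 22 were called higher and 13 lower. First introns had 8 higher and 3 lower among 11 loci, all called, and the loci in intron 3 had 6 higher and 4 lower calls among 11. Within the first introns, too, the 8 higher loci were those that started low. Over the 7 promoter and first-exon loci with a low start, the mean score was 4.92, 8.46 and 9.25 in the SID animals, 23.4, 54.3 and 46.8 in LID, and 27.5 in M5.

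Neighbouring loci a short distance apart differed in the same direction. Of 38 pairs of neighbouring loci in a gene, 13 lay closer than 2000 bases and 13 of these had the same sign. Of the 25 pairs farther apart, 15 did, and of all 38 pairs 28 did. In each of the 13 closer pairs both SID means lay on the same side of the middle of the scale. The start separated the directions almost completely, so an effect of distance apart from the start was not tested. In intron 4 of Slc39a11 loci 877 bases apart had SID means of 95.3 and 56.0, both in the upper part of the scale. They were both lower in LID, with differences of −19.99 and −28.2 points.

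Bmp6, whose product is the ligand that reports liver iron, held the locus with the largest difference in the table. Its first-exon locus (chr13:38438105-38438108) scored 2.62, 2.14 and 7.14 in SID and 20.3, 61.7 and 54.8 in LID. The diets did not overlap, and the difference was 41.7 ± 10.1 points (SE, n = 3 per diet, limma adjusted p = 0.00503). The HID animals A4 and A5 scored 4.62 and 7.31, the former in the SID range and the latter just above it. M5 scored 34.7, between M8 and M0. The intron 1 loci (chr13:38444003-38444006 and chr13:38445706-38445709) were higher by 27.2 and 14.4 points and were called too. At the latter, M5 scored 24.03, within the SID range of 18.7 to 31.2 and under all LID animals, which ran from 31.9 to 50.3.

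Bmp2, the other endothelial ligand of the pathway, had first-exon loci 357 bases apart. At chr2:133378566-133378569 the SID animals scored 5.65, 3.82 and 11.5 and the LID animals 24.6, 50.9 and 46.6, a difference of 33.7 ± 7.75 (limma adjusted p = 0.00503). At chr2:133378209-133378212 the scores were 14.0, 21.2 and 7.31 in SID and 27.1, 52.4 and 42.2 in LID, a difference of 26.4 ± 6.89 (limma adjusted p = 0.00503). All LID animals lay above all 6 SID and HID animals at both loci. M5 scored 23.6 at the former, above the A-coded animals, and 19.2 at the latter, under the SID animal A2.

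Smad6, the inhibitory SMAD with the most loci, had 11 of 13 called higher in LID and 1 called lower. The first-exon locus at chr9:63868025-63868028 scored 2.54, 4.71 and 6.52 in SID and 23.9, 62.8 and 50.96 in LID, a difference of 41.3 ± 10.2 (limma adjusted p = 0.00503). The intron 1 locus 135 bases away (chr9:63867890-63867893) scored 12.0, 2.74 and 5.62 in SID and 30.5, 61.2 and 51.9 in LID, a difference of 41.0 ± 9.44. In both, the diets were apart, A4 and A5 scored from 2.73 to 10.8, and M5 scored 37.5 and 41.4.

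The other first-exon loci of Smad6 gave smaller differences. At chr9:63868628-63868631 SID scored 3.13, 15.5 and 2.50 and LID 25.05, 63.7 and 45.6, a difference of 37.7 ± 9.37 (limma adjusted p = 0.00503). At chr9:63869462-63869465 SID scored 3.55, 4.98 and 18.9 and LID 23.98, 28.1 and 44.3, a difference of 23.0 ± 7.20 (limma adjusted p = 0.0111). A3 was the highest SID animal at the latter and still under M8, and M5 at 18.3 lay within the SID range.

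In intron 3 of Smad6 the loci went both ways. The locus at chr9:63847172-63847175 scored 68.6, 68.2 and 67.1 in SID and 31.3, 52.9 and 44.9 in LID, a difference of −24.9 ± 6.25 (limma adjusted p = 0.00503). All LID animals lay below all others there, with A4 and A5 at 65.8 and 68.2 and M5 at 59.1. The next locus toward the first exon (chr9:63849181-63849184) was higher in LID, at 43.8 ± 14.3 against 13.01 ± 7.51 (SD, n = 3). The locus at chr9:63838014-63838017 was the only one of the 48 whose diets overlapped, at 40.9 ± 2.85 in LID and 48.96 ± 5.53 in SID, and it was not called (limma adjusted p = 0.166).

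**Figure D5:**
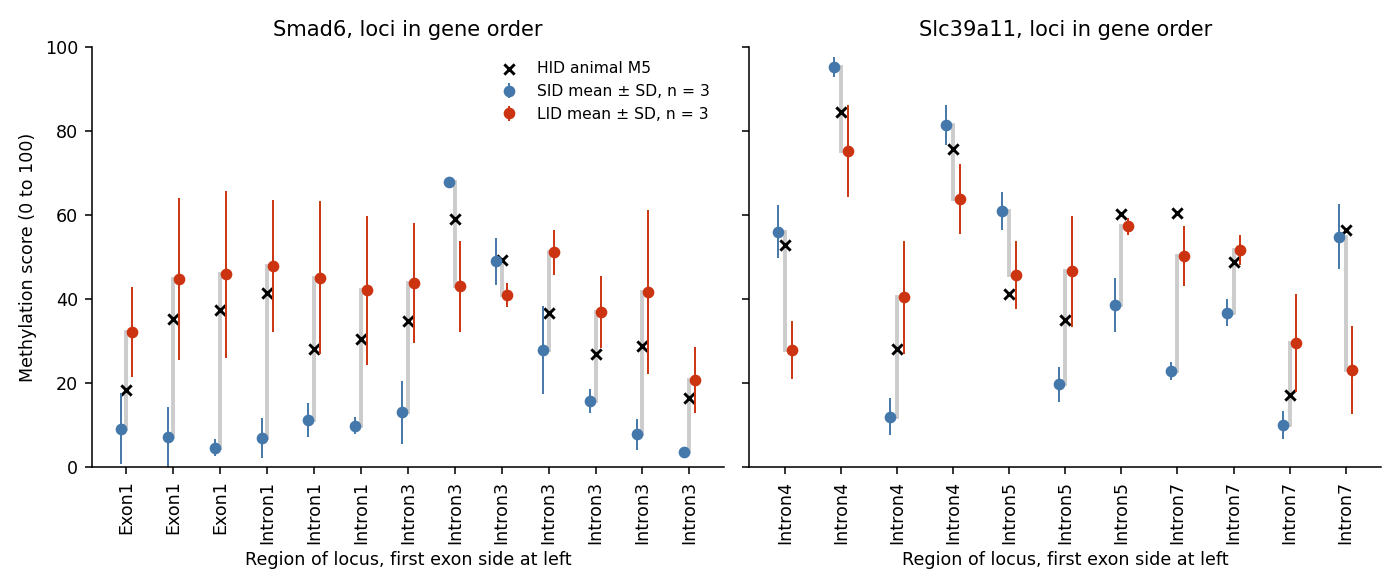
Methylation score (0 to 100) at the 13 loci of Smad6 and the 11 loci of Slc39a11 in gene order, with means ± SD of 3 SID (blue) and 3 LID (red) animals and the HID animal M5 as a cross. In Smad6 the LID means lie above SID at 11 loci, and M5 lies between the means at these 11. In Slc39a11 the first and the last locus shown fell from SID to LID while M5 stayed near SID.

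Smad7, the other inhibitory SMAD, had 3 loci called higher and 3 called lower. In intron 1 the SID animals scored 4.92, 7.44 and 5.13 and the LID animals 23.3, 57.8 and 50.3, a difference of 38.0 ± 9.62 (limma adjusted p = 0.00503), with M5 at 36.9. The intron 2 locus, also low in SID (8.56 ± 1.23, SD, n = 3), was at 44.2 ± 17.0 in LID. Intron 3 held 1 locus that was higher and 3 that were lower. The largest fall there went from 72.6, 72.0 and 66.4 in SID to 40.3, 37.1 and 57.6 in LID, a difference of −25.3 ± 6.69 (limma adjusted p = 0.00503). M5 scored 60.3 and A4 and A5 75.6 and 72.0 at that locus, so every LID animal lay below every other.

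Smad9, a receptor-regulated SMAD, had 1 locus, in intron 1 (chr3:54568571-54568574). It scored 71.1, 59.8 and 70.9 in SID and 58.1, 50.4 and 54.2 in LID, a difference of −13.01 ± 5.56 (limma adjusted p = 0.0405). The HID animals scored 66.6, 69.8 and 68.5, so M5 stood between A4 and A5 and above all LID animals.

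Slc39a11, a ZIP metal transporter gene with loci only in introns 4, 5 and 7, had 6 loci called higher and 5 called lower. The intron 7 locus at chr11:113116291-113116294 had the largest fall of the table. It scored 63.3, 48.2 and 53.2 in SID and 13.5, 21.4 and 34.3 in LID, a difference of −31.8 ± 6.49 (limma adjusted p = 0.00503). The HID animals scored 55.1, 53.1 and 56.4, with M5 the highest of them.

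The intron 4 locus at chr11:113360440-113360443 had the same form. It scored 63.3, 51.5 and 53.3 in SID and 20.7, 28.2 and 34.7 in LID, a difference of −28.2 ± 6.15 (limma adjusted p = 0.00503). The HID animals scored 56.9, 44.5 and 52.8, so M5 again lay among the A-coded animals and above every LID animal. With the code letter as a term the differences at these loci were −34.1 and −30.3, with a limma adjusted p of 0.252 for both.

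The remaining Slc39a11 loci followed their starting scores. The 6 that were higher had SID means from 9.99 to 38.6 and differences from 14.9 to 28.4 points, and 3 further loci that were lower had SID means of 60.9, 81.5 and 95.3 and differences of −15.2, −17.7 and −19.99. At 2 of the 6, in introns 7 and 5, M5 scored 60.6 and 60.3, above every LID animal, so M5 was farther from SID than LID was.

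Slc11a2, the gene of the metal importer DMT1, had its low loci around the start of the gene. The promoter locus (chr15:100253702-100253705) scored 2.97, 6.85 and 10.9 in SID and 18.7, 60.4 and 43.3 in LID, a difference of 33.9 ± 8.88 (limma adjusted p = 0.00503), with M5 at 24.1. The nearest intron 1 locus, 434 bases away, and the next, 162 bases further, were higher by 32.4 and 26.1 points. The other 4 loci of the gene started between 64.3 and 85.7, and 3 of them were called lower.

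Among these, the intron 1 locus at chr15:100250364-100250367 scored 78.5, 58.8 and 55.5 in SID and 30.05, 32.1 and 48.9 in LID, a difference of −27.2 ± 7.41 (limma adjusted p = 0.00519). Here the A-coded HID animals, at 45.9 and 44.95, were lower than all SID animals, while M5, at 56.1, was in the SID range. A4 and A5 thus lay between M9 and M0, so this locus did not separate LID from HID (difference of HID minus LID 12.0, limma adjusted p = 0.148). The intron 2 locus (chr15:100241961-100241964), at 68.2 ± 2.95 in LID and 78.9 ± 5.28 in SID (SD, n = 3), was not called (limma adjusted p = 0.0836) although the diets did not overlap.

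Slc39a5, another ZIP gene, had a promoter locus that started high (chr10:127838847-127838850). It scored 91.4, 88.3 and 91.7 in SID and 80.98, 73.9 and 71.2 in LID, a difference of −15.1 ± 5.57 (limma adjusted p = 0.0224). The HID animals scored 84.0, 77.2 and 88.4, so A4 and A5 were on the LID side of SID and M5 was not. The exon 4 locus (chr10:127836495-127836498) was at 71.1 ± 8.06 in LID and 83.2 ± 4.197 in SID and was not called (limma adjusted p = 0.0608), with M5 at 81.4 above all LID animals.

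Steap3, the ferrireductase gene, had the highest starting score of the table in intron 2 (chr1:122157734-122157737). It scored 98.4, 98.3 and 96.3 in SID and 80.5, 71.2 and 74.8 in LID, a difference of −22.2 ± 6.33 (limma adjusted p = 0.00669). Among the HID animals, A4 and A5 scored 97.4 and 97.8 and M5 scored 78.1, inside the LID range. The intron 5 locus (chr1:122127797-122127800), at 68.5 ± 5.55 in LID and 80.2 ± 1.11 in SID, was not called (limma adjusted p = 0.0538).

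Ftl1, the ferritin light chain gene, had 1 locus, in intron 2 (chr7:52714382-52714385). It scored 8.69, 1.85 and 9.32 in SID and 21.3, 57.3 and 51.9 in LID, a difference of 36.9 ± 9.56 (limma adjusted p = 0.00503). A4 and A5 scored 1.24 and 5.32 and M5 31.4, again between M8 and the other LID animals.

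LID was also compared directly with HID, which asks whether the low-iron animals stood apart from the high-iron ones as well. By limma 33 loci were called (68.8%), 24 lower in HID than in LID (50%) and 9 higher (18.8%), and 37 had an unadjusted p below 0.05 (77.1%). These counts fell to 0 and 0 without A4 and likewise without A5, to 1 and 2 without M9, and to 1 and 3 without M0. Without M5 they were 28 and 10. At 19 loci all LID animals lay beyond all 6 SID and HID animals, M5 included, 9 of them higher and 10 lower. For HID against SID, which shares the SID animals, 0 loci were called by limma and 3 had an unadjusted p below 0.05 (6.25%).

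The RNA of the same 10 genes was set beside the scores. No label links the RNA libraries to the animals of the DNA libraries. The deposited table gives 1 FPKM value per diet (fragments scaled by transcript length and library size), so these levels have no SD. Of the 10 genes, in the authors' deposited table, 9 were lower in LID and 1 was higher. The median log2(FPKM + 1) change over all tested genes was −0.14, so the typical tested gene was lower in LID too. Of the 8 tested, Smad9 was the one called, at 0.840 FPKM in LID against 1.66 in SID (authors' adjusted p = 0.0236). Smad9 and Smad7 passed the filter, a mean over both diets of at least 1 FPKM, through their SID level. Over 9449 genes tested, 4.94% were called, 1.61% higher and 3.33% lower.

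Among the ligands, Bmp6 stood at 0.205 FPKM in LID and 0.803 in SID (authors' deposited table, adjusted p = 0.0583) and was under that filter. Bmp2 stood at 2.30 against 3.73 FPKM (adjusted p = 0.153 in the authors' deposited table). Smad7 stood at 0.841 against 1.66 FPKM (adjusted p = 0.0532) and Smad6 at 1.32 against 2.06 (adjusted p = 0.372) in the authors' deposited table. Bmp2, Smad6 and Smad7 were tested and not called, and Bmp6 was not tested.

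Of the transport and storage genes that hold loci, none of those tested was called. In the authors' deposited table Ftl1 stood at 1713 FPKM in LID and 2892 in SID (adjusted p = 0.337), Steap3 at 3.74 and 5.36 (adjusted p = 0.376), and Slc39a11 at 4.34 and 5.69 (adjusted p = 0.491). Slc39a5, under the filter and not tested, stood at 0.289 and 0.630 FPKM, and Slc11a2, the one higher in LID, at 6.33 and 5.55. Relative to the median log2(FPKM + 1) change of all tested genes, −0.14, the changes of the 10 genes ran from −0.62 for Ftl1 to 0.30 for Slc11a2. The order at the lower end depended on the pseudocount: with 0.1 in place of 1, Bmp6 was lowest at −1.40, and Smad7, Smad9 and Slc39a5 at −0.74 were also below Ftl1 at −0.59. Genes whose loci were all higher in LID, all lower or mixed thus occurred together among the genes with lower FPKM.

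The loci cover part of the pathway. Of 26 hepcidin and BMP-SMAD genes listed, 5 held loci. In RNA 21 were tested, of which 7 were called lower in LID (Hamp, Hamp2, Id1, Id2, Id3, Atoh8 and Smad9) and 0 higher. All 25 with an RNA entry had a lower FPKM in LID than in SID, called or not, some by very little, such as Acvr2a at 3.482 against 3.484. The typical tested gene was lower in LID too, with a median log2(FPKM + 1) change of −0.14. The share of all genes that were lower was not counted, so this direction is not a result about the list. Calls are at an authors' adjusted p below 0.05, which 3.33% of all tested genes passed as lower and 1.61% as higher. Of 30 genes of iron and metal transport and storage, 4 held loci and 25 were tested in RNA. Of these, 3 were called higher in LID (Tfrc, Mt1 and Mt2) and 0 lower. Trf, a member of this list, was listed at 0 FPKM in LID against 4825 in SID and was not tested.

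A bulk methylation score averages over the cells of the liver, so other cell types and a change within cells cannot be told apart in it, nor can fewer cells of a type and less RNA per cell in the RNA. In the authors' RNA table hepatocyte genes were abundant in both diets: 8 of 10 markers were tested and 0 called, with summed FPKM of 17912 in LID and 23088 in SID, and Alb and Serpina1a were listed at 0 in both. Neutrophil markers were higher in LID, with 5 of 5 tested members called, of which Camp, Ngp and Retnlg passed the filter through their LID level, and summed FPKM over 8 members of 195 against 6.57, with Mpo listed at 0 in SID. Of 7 tested Kupffer cell and macrophage markers 4 were called higher, with summed FPKM of 183 against 103. Over all tested genes 1.61% were called higher in LID. None of the 6 lymphocyte markers was tested, with summed FPKM of 2.19 in LID against 1.94 in SID. The part of cell composition in the scores was not tested.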

How the data were processed

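Liver DNA of 9 mice was digested with HpaII and MspI, per the labels, although the titles call the libraries bisulfite sequencing. The authors deposited 1 score per locus and animal and a p-value per locus from a test the file does not name. Neither the making of the score nor the coverage is given in the sources used here. Per the submitters' processing notes, TopHat, Cufflinks 2.2.1 and build mm9 were used. In the RNA table the authors deposited, there is 1 FPKM value per gene and diet, a unit taken from the tool and the values, with the authors' p-values and adjusted p-values. There was 1 further per-diet RNA column, whose header the labels do not explain, and it was not used.

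Scores were fitted as deposited with limma 3.58.1 (R 4.3.3) over all 9 animals with diet as the factor, Benjamini-Hochberg adjustment over 48 loci and a threshold of 0.05, tested on simulated data. The labels do not say more of how animals were housed or processed, so p-values measure the spread between these animals. RNA genes were tested with a mean of SID and LID of at least 1 FPKM and an authors' adjusted p below 1, a value of 1 being treated as not tested.

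Named loci were the 6 largest called differences each way, all promoter and first-exon loci, the largest of each gene, and up to 3 loci without overlap that were not called. Further loci named in the text were chosen after their values were seen. The loci and lists were chosen with earlier results of these data known. Alternatives were a logit scale, other spread estimates, a replicate block, a code letter term, fewer animals, other thresholds and adjustments, gene means, other summaries and starting scores, RNA pseudocounts and the RNA filter. A further list of cell type markers is not reported here.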

Additional observations from a re-analysis of the deposited data

How the results depend on the processing

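With the code letter as a term, the counts of loci called in LID against SID were 0 higher and 0 lower, and those in HID against LID 0 and 0. Without moderation of the spread, HID against LID had 0 higher and 0 lower calls. Leaving out 1 animal gave 25 to 29 higher and 8 to 16 lower calls in LID against SID, and 0 to 10 higher and 0 to 28 lower in HID against LID. With the replicate block LID against SID had 29 higher and 16 lower calls and HID against LID 9 and 25. The numbers share no stated link between diets. Deviations from the diet means had r of 0.08, 0.21 and −0.18 over the loci for same-numbered SID and LID animals. For differently numbered animals r ran from −0.21 to 0.18, so the numbers showed no pairing. The median intron difference of 17.9 was 7.98 as a mean. At starts of 50 or more the median of −16.4 was −18.5 as a mean, −14.2 with starts from the HID mean, and −19.0 to −14.9 without 1 animal. On gene means 4 genes were called higher and 3 lower. No named locus changed sign in any alternative. Of the 21 named loci, 18 were called, and all 18 lost the call with the code letter as a term. The unknown coverage limits every score.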

Other observations

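Some scores were identical to every deposited digit at different loci of an animal. Of 432 scores, 12 were shared in this way, as 6 pairs in 4 animals. SID animal A1, for example, had 63.3 at both the intron 7 and the intron 4 locus of Slc39a11 that fell most in LID.

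The FPKM of Smad7 and Smad9 were close in both diets of the authors' deposited table, 1.66 and 1.66 in SID and 0.841 and 0.840 in LID, in separate entries with adjusted p of 0.0532 and 0.0236.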
